A study of Homo sapiens with 4 samples.

Results

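The transcripts of 32 genes that fold, check, import and dispose of proteins in the endoplasmic reticulum (ER) were followed in T24 and 5637, 2 lines of human bladder cancer cells, with and without protodioscin, a steroidal saponin. The genes were chosen by list and found by Ensembl ID: 13 chaperones and their helpers, 6 enzymes of disulfide formation and exchange, 7 genes of ER-associated degradation, 3 of protein translocation, and 3 sensors or transcription factors of the unfolded protein response. All 32 were among the 60617 genes of the deposited table. The 4 groups were untreated T24, T24 with 60 µM protodioscin, untreated 5637 and 5637 with 70 µM, each represented by 1 library, and the treatment lasted 6 h. Doses carry the unit of the sample titles. The protocol text has these numbers in millimolar, and the labels call the controls untreated without naming a vehicle.

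The ER folds secreted and membrane proteins. Hsp70- and Hsp90-type chaperones, lectins that read N-glycans, and protein disulfide isomerases act on new chains as they enter through the Sec61 channel, and chains that fail to fold are sent back to the cytosol for degradation. When unfolded proteins accumulate, IRE1 (the product of ERN1), ATF6 and PERK start the unfolded protein response. The IRE1 and ATF6 arms raise chaperone and degradation genes through XBP1 and cleaved ATF6, which act at ER stress response elements in the promoters of those genes. The PERK arm acts through ATF4 and DDIT3.

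Values are FPKM (fragments counted per kilobase of transcript and scaled to library size), as the authors deposited them. The table gives no read totals. From the spacing of its lowest values, 1 read on a transcript of 1 kb was worth 0.017 to 0.0246 FPKM, so genes of a few FPKM or more rest on many reads. The 4 libraries held 11941 to 12405 genes at 1 FPKM or more. The epithelial keratin KRT7 was at 782 to 1235 FPKM in all 4 libraries. The adhesion gene CDH1 was at 69.6 and 72.3 FPKM in 5637 but at 0.016 and 0 in T24, and the basal keratin KRT5 was listed at 0 in both T24 libraries. Of the markers of other cell types, LUM, DCN and JCHAIN were listed at 0 in all 4 libraries. The fibroblast list summed to 1.08 to 7.99 FPKM, mostly COL1A1, and the endothelial list to 0.123 to 1.98, with CDH5 at 1.57 in untreated T24. SDC1, which epithelial cells and plasma cells both express, was at 90.0 to 125 FPKM, and the macrophage and lysosome gene CD68 was at 7.08 and 10.5 FPKM in T24 and 1.60 and 1.65 in 5637.

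The promoters of several of these genes hold the ER stress response element (ERSE), which is CCAAT, 9 bases of any kind and CCACG, and they are shown because the response is known to act at this element. The element was searched on both strands of RefSeq windows (GRCh38.p14) from 250 bases before to 50 after each start. It lay in 7 of the 29 genes with a window (24.1%): HSPA5, HSP90B1, CALR, CANX, PDIA6, XBP1 and CRELD2. It lay in 25 of the 27305 genes in the RefSeq table (0.0916%), and in 27 of its 35116 windows (0.0769%). The 29 genes are counted in that table, and they were listed for their known ER roles. The contrast therefore comes with the choice of list, and no enrichment was tested. The element contains CCAAT, which by itself was in 82.8% of the 29 genes and 39.7% of all genes. The 6 windows of the genes with the highest mean level follow, 5′ to 3′ on the gene's strand, with the element in capitals. They are chr19:12938359-12938658 (plus strand) for CALR, chr12:103930160-103930459 (plus) for HSP90B1, chr5:179698679-179698978 (plus) for CANX, chr9:125241294-125241593 (minus) for HSPA5, chr2:10812736-10813035 (minus) for PDIA6 and chr22:28800520-28800819 (minus) for XBP1.
CALR: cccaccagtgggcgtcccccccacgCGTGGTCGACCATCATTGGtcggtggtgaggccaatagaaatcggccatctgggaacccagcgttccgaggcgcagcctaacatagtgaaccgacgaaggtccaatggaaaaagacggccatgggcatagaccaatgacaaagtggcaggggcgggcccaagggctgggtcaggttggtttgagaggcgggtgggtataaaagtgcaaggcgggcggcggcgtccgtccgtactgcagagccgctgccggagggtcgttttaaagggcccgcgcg
HSP90B1: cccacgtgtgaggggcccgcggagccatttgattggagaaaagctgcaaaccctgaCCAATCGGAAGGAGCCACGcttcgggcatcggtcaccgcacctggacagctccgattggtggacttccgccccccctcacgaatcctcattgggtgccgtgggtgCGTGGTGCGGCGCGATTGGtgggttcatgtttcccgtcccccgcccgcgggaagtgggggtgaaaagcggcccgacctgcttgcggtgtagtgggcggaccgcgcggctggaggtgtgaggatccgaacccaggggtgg
CANX: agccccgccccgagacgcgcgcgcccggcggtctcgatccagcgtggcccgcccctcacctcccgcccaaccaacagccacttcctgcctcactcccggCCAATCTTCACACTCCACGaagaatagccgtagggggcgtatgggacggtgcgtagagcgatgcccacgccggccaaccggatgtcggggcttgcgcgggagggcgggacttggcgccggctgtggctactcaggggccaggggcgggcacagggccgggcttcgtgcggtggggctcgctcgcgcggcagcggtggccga
HSPA5: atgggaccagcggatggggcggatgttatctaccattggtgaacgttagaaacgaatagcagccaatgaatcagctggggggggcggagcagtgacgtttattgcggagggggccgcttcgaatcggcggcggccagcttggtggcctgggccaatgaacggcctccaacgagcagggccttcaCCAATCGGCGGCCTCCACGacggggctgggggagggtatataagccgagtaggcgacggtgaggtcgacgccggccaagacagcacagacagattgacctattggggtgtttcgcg
PDIA6: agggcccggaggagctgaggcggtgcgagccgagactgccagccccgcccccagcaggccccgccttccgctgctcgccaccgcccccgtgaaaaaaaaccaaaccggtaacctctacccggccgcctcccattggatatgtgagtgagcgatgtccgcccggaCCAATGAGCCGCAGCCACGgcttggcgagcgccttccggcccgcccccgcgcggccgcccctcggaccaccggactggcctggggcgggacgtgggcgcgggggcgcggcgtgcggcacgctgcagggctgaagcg
XBP1: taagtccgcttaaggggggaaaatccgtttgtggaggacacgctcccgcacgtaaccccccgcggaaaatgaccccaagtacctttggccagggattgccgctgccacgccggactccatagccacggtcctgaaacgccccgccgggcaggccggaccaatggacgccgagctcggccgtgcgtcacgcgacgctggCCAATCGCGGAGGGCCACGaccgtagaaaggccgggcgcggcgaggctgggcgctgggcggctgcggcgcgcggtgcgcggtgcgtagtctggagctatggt
CALR carried the element on the opposite strand, HSP90B1 carried one on each strand, and the other 4 genes carried it on the gene's own strand. In HSPA5 it ran from 66 to 48 bases before the start, and in XBP1 from 52 to 34 bases before it.

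A shorter form, ERSE-II, which is ATTGG, 1 base of any kind and CCACG, was searched in the same way and found in 3 of the 29 genes (10.3%) and in 19 of the 27305 genes of the table (0.0696%). These 3 genes are HERPUD1 at chr16:56932005-56932055 (plus), SDF2L1 at chr22:21642094-21642144 (plus) and HYOU1, which held it at 2 places, chr11:119057360-119057410 and chr11:119057254-119057304 (minus). The element is again in capitals, with its flanks in lower case.
HERPUD1: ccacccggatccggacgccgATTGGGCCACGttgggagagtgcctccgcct
SDF2L1: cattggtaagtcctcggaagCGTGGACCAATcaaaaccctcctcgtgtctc
HYOU1, distal: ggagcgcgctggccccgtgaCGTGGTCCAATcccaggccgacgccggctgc
HYOU1, proximal: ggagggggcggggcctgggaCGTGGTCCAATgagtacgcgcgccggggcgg
The site TGACGTGG, to which XBP1 binds, was in the windows of HYOU1, where it overlaps the distal ERSE-II, and of TXNDC5, and in 0.927% of all genes. For ERSE-II and this site too, the contrast with all genes comes with the choice of list. These matches are letters in a window and do not show that a factor was bound.

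All but 1 of the ER genes were expressed at 1 FPKM or more in both lines. Together the 32 genes held 0.851% of the FPKM sum in untreated T24 and 0.910% in treated T24. In 5637 they held 0.773% untreated and 0.790% treated. CALR and P4HB led in every library, at ranks from 46 to 81 among all genes, and DERL3 was the only one of the 32 under 1 FPKM, in all 4 libraries.

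**Figure D1:**
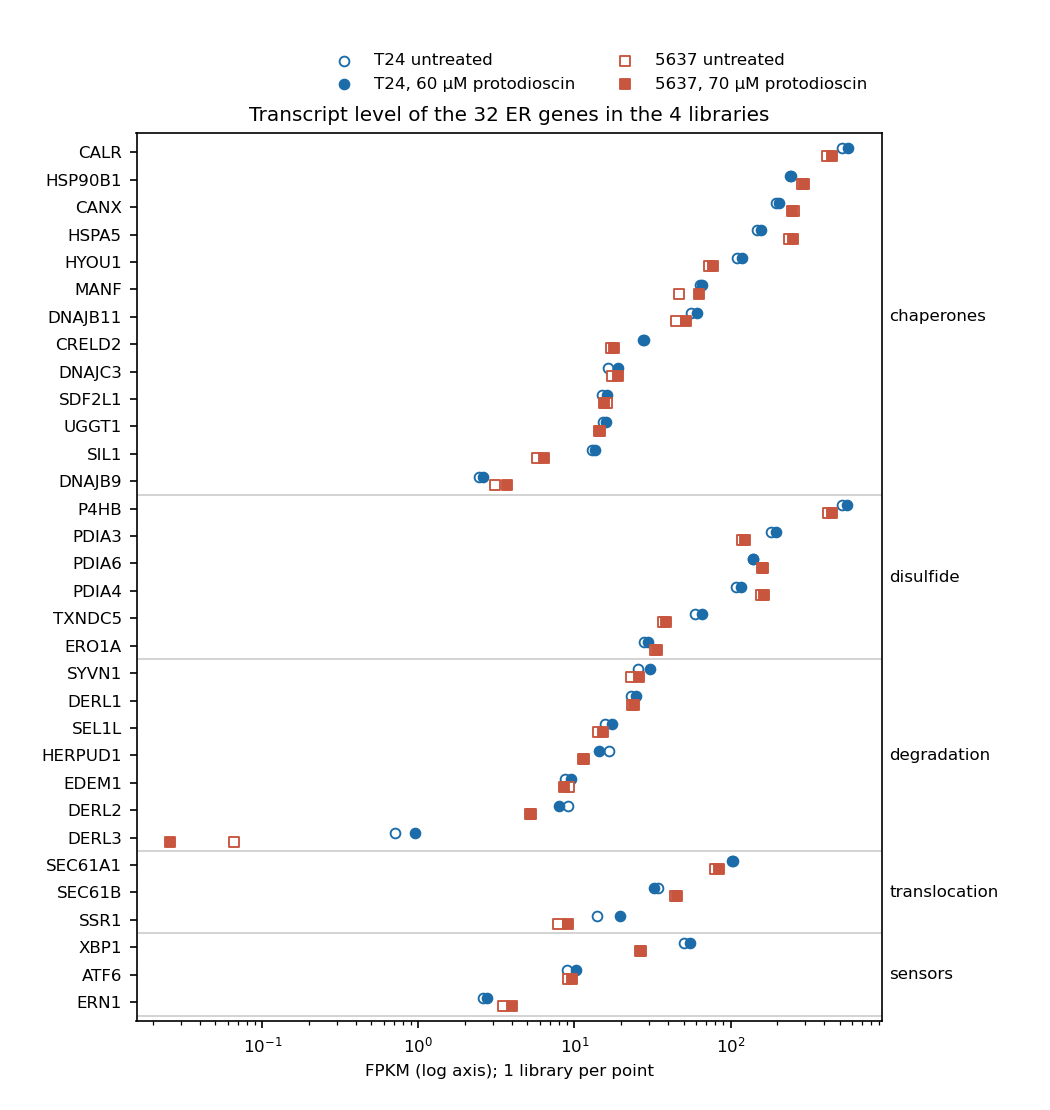
FPKM (log axis) of the 32 genes by role in each of the 4 libraries, 1 point per library, with open symbols for untreated and filled symbols for treated cells. The treated point lies close to the untreated point of its line for nearly all genes, and DERL3 sits apart at the low end.

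Treatment differences are treated minus untreated on the log2(FPKM + 1) scale. Where a line has 2 values, the untreated library is given first and the treated library second. With 1 library a group the differences have no replicate check, and no test was made within a line. Among the 31 genes that reached 1 FPKM, 27 had a difference above 0 in T24, where 56% of all 12193 genes compared did. In 5637 there were 25 of 31 against 61.5% of 12635 genes. The 5637 count depends on the scaling. It was 19 after median-ratio scaling and 21 after scaling to TPM, which makes the sum of all genes equal in each library, while the share of all genes came to 46.5% and 51.4%. The T24 count was 25 and 27 under the same scalings. The differences were small, with a median of 0.09 in T24 and 0.08 in 5637, beside 0.02 and 0.04 for all genes. A difference of 0.25 or more upward was seen in 1 of 31 genes in T24, SSR1 (8% of all genes), and in 1 of 31 in 5637, MANF (9.31%). SYVN1 in T24, at 0.247, was just under 0.25. No gene of the 31 had a downward difference of that size, against 8.58% of all genes in T24 and 6.4% in 5637. No gene of the 31 reached a 2-fold difference, which 0.484% and 0.388% of all genes did.

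**Figure D2:**
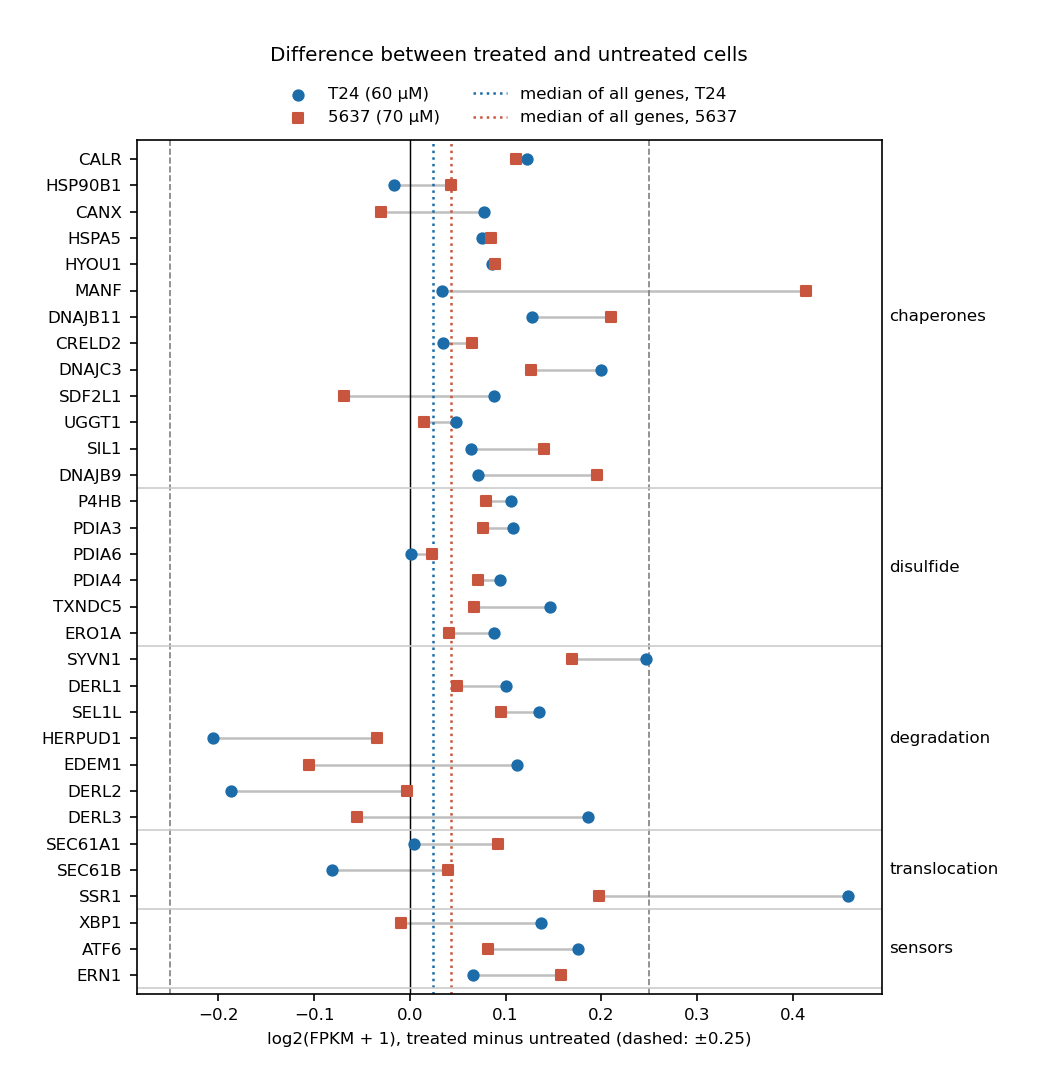
Treated minus untreated log2(FPKM + 1) for each of the 32 genes in T24 (circles, 60 µM) and 5637 (squares, 70 µM), 1 pair of libraries per point; dashed lines mark 0.25 in each direction and dotted lines the median of all genes in each line. SSR1 in T24 (0.46) and MANF in 5637 (0.41) are the only points beyond the dashed lines.

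Among the chaperones, 12 of 13 had a difference above 0 in T24 (56% of all genes) and 11 of 13 in 5637 (61.5%), with medians of 0.08 and 0.09. The 5637 count was 9 after median-ratio scaling (46.5% of all genes), where HSP90B1 and UGGT1 turned below 0. HSPA5 (BiP), the Hsp70 of the ER that also holds the 3 sensors inactive (GRCh38 chr9:125234853-125241330), measured 148 FPKM in untreated and 156 in treated T24, and at 237 and 252 in 5637. Both 5637 libraries were above both T24 libraries, and the treated library was above its control by 0.08 in each line. HSP90B1 (GRP94), the Hsp90 of the ER, was at 243 and 240 FPKM in T24 and 287 and 296 in 5637, untreated and treated. Its differences of -0.02 and 0.04 had opposite signs.

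BiP works with J-domain proteins that deliver substrate and with exchange factors that release it. DNAJB11 (ERdj3), a soluble J-domain protein, was at 55.8 and 61.1 FPKM in T24 and 44.8 and 52.0 in 5637, differences of 0.13 and 0.21. Both treated libraries were above their controls, and the lines did not overlap. DNAJC3 (p58IPK), a J-domain protein that also restrains PERK, was at 16.3 and 18.9 FPKM in T24 and 17.4 and 19.1 in 5637, with both untreated libraries below both treated ones. DNAJB9 (ERdj4), a J-domain protein induced by XBP1 in other systems, was low, at 2.43 and 2.60 FPKM in T24 and 3.10 and 3.69 in 5637. Its differences were 0.07 and 0.20. On the other strand DNAJB9 shares 183 exon bases with THAP5, at 6.18 and 6.71 FPKM in T24 and 8.99 and 9.86 in 5637. It also shares 99 with PNPLA8, at 5.05 and 5.65 FPKM in T24 and 6.95 and 8.22 in 5637. The libraries do not mark strand, and the part of these neighbours in the DNAJB9 values was not tested.

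HYOU1, an Hsp70 relative, is 1 such exchange factor, at 111 and 118 FPKM in T24 and 72.4 and 77.0 in 5637, a difference of 0.09 in each line. SIL1 (chr5:138946720-139293557) is another, at 12.9 and 13.5 FPKM in T24 and 5.73 and 6.42 in 5637, differences of 0.06 and 0.14. Both exchange factors thus had their higher levels in T24, where HSPA5 had its lower ones.

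MANF (chr3:51385047-51389397), a secreted ER protein that binds BiP, was at 64.1 and 65.7 FPKM in T24 and 46.8 and 62.7 in 5637. The untreated 5637 library was the low one, and the other 3 lay within 62.7 to 65.7. The difference was 0.03 in T24 and 0.41 in 5637, the largest of the 31 genes in that line. CRELD2, which is secreted with MANF under ER stress in other systems, was at 27.3 and 28.01 FPKM in T24 and 17.0 and 17.9 in 5637, differences of 0.03 and 0.06.

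The lectin chaperones calreticulin and calnexin hold glycoproteins while they fold, and UGGT1 puts back the glucose that lets them rebind. CALR was at 521 and 567 FPKM in T24 and 415 and 448 in 5637, differences of 0.12 and 0.11. CANX was at 194 and 205 FPKM in T24 and 253 and 248 in 5637, differences of 0.08 and -0.03. The soluble lectin had its higher levels in T24 and the membrane-bound one in 5637. UGGT1 lay between 14.4 and 15.9 FPKM in all 4 libraries. SDF2L1, a partner of ERdj3, lay between 15.1 and 16.2, with differences of 0.09 in T24 and -0.07 in 5637.

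All 6 disulfide enzymes had a difference above 0 in both lines (39.2% of all genes), with medians of 0.10 in T24 and 0.07 in 5637. After median-ratio scaling the counts were 5 of 6 in T24 (51.6% of all genes) and 4 of 6 in 5637 (46.5%). P4HB (PDI), which forms and shuffles disulfides and is a subunit of collagen prolyl hydroxylase, was at 515 and 554 FPKM in T24 and 423 and 447 in 5637. PDIA3 (ERp57), which works with the lectin chaperones, was at 181 and 195 FPKM in T24 and 118 and 124 in 5637. PDIA4 (ERp72) was at 109 and 116 FPKM in T24 and 156 and 164 in 5637. The differences of these 3 enzymes lay between 0.07 and 0.11, and PDIA4 had the reverse order of lines.

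PDIA6 was at 140.3 and 140.4 FPKM in T24 and 159.8 and 162 in 5637, differences of 0.00 and 0.02. ERO1A, the oxidase that recharges PDI, was at 27.95 and 29.8 FPKM in T24 and 32.8 and 33.8 in 5637, differences of 0.09 and 0.04. TXNDC5 was at 59.2 and 65.6 FPKM in T24 and 36.9 and 38.7 in 5637, differences of 0.15 and 0.07. It shares 2658 exon bases with the read-through gene BLOC1S5-TXNDC5 on the same strand, which was at 9.06 FPKM untreated and 0.162 treated in T24, and at 2.21 and 0 in 5637. The sum of the pair was 68.2 and 65.7 FPKM in T24 and 39.1 and 38.7 in 5637, so its differences of -0.05 and -0.01 have the other sign in both lines.

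The degradation genes were less alike. Of the 6 compared, 4 had a difference above 0 in T24 (56% of all genes) and 3 in 5637 (61.5%), with medians of 0.11 and 0.02. The 5637 median turned to -0.03 (2 of 6 above 0) with median-ratio scaling and to -0.02 (3 of 6) with TPM. SYVN1 (HRD1), the ubiquitin ligase of the retrotranslocation complex (chr11:65121780-65134533), was at 25.4 and 30.3 FPKM in T24 and 23.0 and 25.97 in 5637. Both treated libraries were above both untreated ones, with differences of 0.247 and 0.17. SYVN1 shares 398 exon bases on its strand with the ribosomal gene FAU, at 192 to 221 FPKM, and 356 bases with MRPL49 on the other strand, at 54.0 and 59.7 FPKM in T24 and 41.8 and 46.3 in 5637. The part of these neighbours in the SYVN1 values was not tested.

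SEL1L, the scaffold that holds HRD1, was at 15.8 and 17.4 FPKM in T24 and 14.2 and 15.3 in 5637, differences of 0.14 and 0.09. HERPUD1 (chr16:56932048-56944863), a membrane protein of the same complex, was at 16.7 and 14.3 FPKM in T24 and 11.6 and 11.3 in 5637. Its difference of -0.21 in T24 was the lowest of the 31 genes there, and in 5637 it was -0.03. EDEM1, a mannosidase-like protein that marks glycoproteins for disposal, was at 8.74 and 9.52 FPKM in T24 and 9.28 and 8.56 in 5637, differences of 0.11 and -0.11.

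The derlins are membrane proteins through which substrates leave the ER. DERL1 lay between 22.9 and 24.7 FPKM in the 4 libraries. DERL2 was at 9.15 and 7.92 FPKM in T24 and 5.23 and 5.22 in 5637, differences of -0.19 and -0.0029. DERL3 was at 0.709 and 0.944 FPKM in T24 and 0.0653 and 0.0257 in 5637, which amounts to about 29 and 49 reads per kilobase in T24 but 4 and 1 in 5637. It shares 2923 exon bases with SMARCB1 on the other strand, at 29.2 and 53.3 FPKM in T24 and 40.9 and 69.3 in 5637, and the libraries do not mark strand. DERL3 was not compared, since it stayed under 1 FPKM in all 4 libraries.

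Of the translocation genes, SEC61A1, the pore of the channel, was at 102.8 and 103.2 FPKM in T24 and 79.4 and 84.7 in 5637, differences of 0.00 and 0.09. SEC61B, its small tail-anchored subunit, was at 34.3 and 32.4 FPKM in T24 and 44.3 and 45.6 in 5637, differences of -0.08 and 0.04. SSR1 (TRAP-alpha, chr6:7268306-7347446 on GRCh38), a subunit of the complex that helps chains enter, was at 13.9 and 19.5 FPKM in T24 and 7.86 and 9.16 in 5637. Treated T24 was the highest of the 4 and both T24 libraries were above both 5637 libraries. Its differences were 0.46 in T24, the largest of the 31 genes there, and 0.20 in 5637.

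The other 3 subunits of the TRAP complex, named after their values were seen, did not share the upward treatment difference in T24. SSR2 was at 78.0 and 76.2 FPKM in T24 and 121 and 129 in 5637. SSR3 was at 50.3 and 40.2 FPKM in T24 and 71.0 and 70.7 in 5637. SSR4 was at 81.6 and 72.6 FPKM in T24 and 53.5 and 50.9 in 5637. In T24 their differences were -0.03, -0.32 and -0.17, against 0.46 for SSR1. In 5637 they were 0.09, -0.01 and -0.07, against 0.20 for SSR1. For SSR4, as for SSR1, both T24 libraries were above both 5637 libraries.

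XBP1 is regulated at its mRNA, since active IRE1 cuts out a stretch of 26 bases in the cytosol and the altered frame encodes the active factor. The removed stretch lies at chr22:28796124-28796149 on the minus strand of GRCh38. It is shown in capitals in the GENCODE 29 transcript sequence, with 12 bases on each side, because a gene-level value sums both forms and does not show the splicing.
XBP1 mRNA: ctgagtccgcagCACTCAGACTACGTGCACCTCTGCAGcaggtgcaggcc
XBP1 (gene at chr22:28794555-28800597) was at 50.2 and 55.3 FPKM in T24 and 26.6 and 26.4 in 5637. Its differences were 0.14 and -0.01, and the lines did not overlap.

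ATF6, the sensor whose transcription factor domain is cut free in the Golgi, was at 8.95 and 10.2 FPKM in T24 and 9.06 and 9.64 in 5637. Both treated libraries were above both untreated ones, with differences of 0.18 and 0.08. ERN1 was at 2.59 and 2.76 FPKM in T24 and 3.47 and 3.99 in 5637, differences of 0.07 and 0.16. Both proteins are activated after translation, so their transcript levels do not show the activity of the sensors.

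Treatment differences are given next for genes with and without a stress element, and the difference between them was not tested. The 7 genes with an ERSE had a median of 0.08 in T24 and 0.04 in 5637, and the 22 others with a promoter window had 0.09 and 0.09 (PDIA3, DERL1 and DERL3 had none). The 3 genes with an ERSE-II, HERPUD1, HYOU1 and SDF2L1, had medians of 0.09 and -0.03, and the 26 without it 0.08 and 0.08.

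The treatment effect over both lines was fitted with limma over 12893 genes, with the cell line as a block. The fit has 1 residual degree of freedom and counts the difference between the lines' responses as error, at 60 µM in T24 and 70 µM in 5637. Whether the cultures were independent is not in the labels, so the p-values reflect the spread among these 4 libraries alone. No gene of the 31 passed an adjusted p of 0.05 by limma (Benjamini-Hochberg), and 0% of all genes did. At an unadjusted p below 0.05 there were 3 of 31 genes upward, SSR1, SYVN1 and DNAJB11, where 5.58% of all genes were, and 0 downward, where 3.94% were. The SSR1 effect was 0.33 (95% interval 0.10 to 0.56, limma adjusted p = 0.487). The SYVN1 effect was 0.21 (0.04 to 0.37, limma adjusted p = 0.495), and that of DNAJB11 was 0.17 (SE 0.0621, limma adjusted p = 0.507). Each of the 3 was higher in the treated library of both lines. For MANF the effect was 0.22 (-0.01 to 0.46, limma adjusted p = 0.531). For HSPA5, the marker gene of the response, it was 0.08 (-0.06 to 0.22, limma adjusted p = 0.666), and for XBP1 it was 0.06 (limma adjusted p = 0.772).

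The difference had the same sign in both lines for 25 of the 31 genes, above 0 for 23 (74.2%) and below 0 for HERPUD1 and DERL2. DERL2 was at -0.0029 in 5637. Among all 11417 genes compared in both lines, 39.2% were above 0 in both, 2255 genes were below 0 in both and 4686 had opposite signs. After median-ratio scaling PDIA6 and SEC61A1 turned below 0 in T24. In 5637 DERL1, ERO1A, HSP90B1, PDIA6, SEC61B and UGGT1 did, so fewer than 23 were then above 0 in both. Against the median of all genes in each line, 19 of 31 (61.3%) were above it in both, beside 28.5% of all genes. The share of mitochondrial transcripts and the depth also differed between treated and untreated libraries, in opposite directions in the 2 lines. Mitochondrial transcripts were at 4.50% and 3.74% of the FPKM sum in T24 and at 9.84% and 11.9% in 5637. Depth relative to untreated T24 was 1.28 for treated T24, and for 5637 it was 1.45 without and 1.19 with treatment. Their part in these counts was not tested.

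Further genes of the same machinery were listed by role. Of 29 more folding genes, 23 (79.3%) were above 0 in T24 and 24 (82.8%) in 5637, with medians of 0.08 and 0.10. Among all genes 56% and 61.5% were above 0. The 5637 count was 19 (65.5%) after median-ratio scaling, where 46.5% of all genes were above 0. DNAJC1, a membrane J-domain protein, was at 14.5 and 17.7 FPKM in T24 and 13.1 and 15.9 in 5637, and the Hsp70 relative HSPA13 was at 16.4 and 19.5 and at 9.20 and 10.8. Both were higher in each treated library. The prolyl isomerase FKBP7 was lower in each, at 3.07 and 2.74 FPKM in T24 and 5.41 and 4.97 in 5637. The disulfide reductase DNAJC10 was at 12.2 and 8.04 FPKM in T24 and 12.1 and 10.97 in 5637, and it shares exons with a ribosomal pseudogene.

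Of 31 more degradation genes, 25 (80.6%) were above 0 in T24 and 27 (87.1%) in 5637, with medians of 0.09 and 0.08. Among all genes 56% and 61.5% were above 0. The 5637 count was 23 (74.2%) after median-ratio scaling, beside 46.5% of all genes. FAM8A1, a partner of HRD1, was at 2.37 and 3.38 FPKM in T24 and 1.85 and 2.75 in 5637, differences of 0.38 and 0.39. The ubiquitin-conjugating enzyme UBE2J1, which serves HRD1, was at 10.6 and 12.7 FPKM in T24 and 8.97 and 10.6 in 5637. ERLIN1, which marks the inositol trisphosphate receptor for degradation, was lower in each treated library, at 39.8 and 31.2 and at 16.9 and 15.5 FPKM. It shares exons with CHUK.

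Of 34 more translocation, signal peptidase and glycosylation genes, 17 (50%) were above 0 in T24 and 25 (73.5%) in 5637, with medians of 0.01 and 0.10. Among all genes 56% and 61.5% were above 0. After median-ratio scaling the counts were 16 (47.1%) and 20 (58.8%), beside 51.6% and 46.5% of all genes. The T24 median then turned to -0.01 and the 5637 median was 0.03. The signal peptidase subunit SEC11C was higher in each treated library, at 16.8 and 20.6 FPKM in T24 and 26.4 and 30.6 in 5637. So was the oligosaccharyltransferase subunit TUSC3, at 34.3 and 37.9 and at 16.0 and 22.8 FPKM. The signal peptidase subunit SPCS1 was lower in each, at 19.2 and 16.7 FPKM in T24 and 14.4 and 10.7 in 5637. The catalytic subunit STT3A, which shares exons with CHEK1, was at 84.5 and 75.6 FPKM in T24 and 42.1 and 39.0 in 5637.

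Of 12 more sensor-related genes compared (14 listed), 9 (75%) were above 0 in T24 and 10 (83.3%) in 5637, beside 56% and 61.5% of all genes. After median-ratio scaling 4 (33.3%) were above 0 in 5637, beside 46.5% of all genes. EIF2AK3 (PERK) was at 4.60 and 5.07 FPKM in T24 and 3.92 and 4.54 in 5637. CREB3L2, a relative of ATF6, was at 35.0 and 32.9 FPKM in T24 and 17.2 and 17.0 in 5637.

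The list of PERK branch genes, kept apart because that arm acts through ATF4 and DDIT3, had larger differences. PERK activity was not measured, and these transcript levels do not show which signal acts on the genes. Of the 11 genes compared in this list (12 listed), 10 were above 0 in T24 (56% of all genes) and 7 in 5637 (61.5%). The medians were 0.30 and 0.18. The 63.6% above 0 in 5637 was near the share of all genes. After median-ratio scaling the counts were 9 (51.6% of all genes) and 7 (46.5%). In T24, 6 of them were at 0.25 or more (8% of all genes) and 0 at -0.25 or below (8.58%). In 5637, 3 were at 0.25 or more (9.31%) and 2 at -0.25 or below (6.4%). ATF4 and DDIT3, given here as the factors through which the branch acts, stayed below 0.25 in both lines. ATF4 was at 85.4 and 96.7 FPKM in T24 and 77.5 and 87.9 in 5637, a difference of 0.18 in each line. DDIT3 was at 5.42 and 5.89 and at 2.37 and 2.87 FPKM, differences of 0.10 and 0.20. Of the next genes, ATF3, ASNS and CHAC1 were picked by the size of their differences. TRIB3 was picked as the 1 gene below 0 in both lines, at -0.03 and -0.05. For the stress-induced factor ATF3 the T24 values were 6.81 and 10.0 FPKM and those of 5637 were 1.81 and 3.80, differences of 0.50 and 0.77. The asparagine synthetase gene ASNS was at 8.12 and 9.07 and at 5.11 and 8.76 FPKM, and CHAC1, which degrades glutathione, at 3.67 and 5.47 and at 1.82 and 2.20. The pseudokinase gene TRIB3 was at 29.1 and 28.6 FPKM in T24 and 6.60 and 6.32 in 5637.

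**Figure D3:**
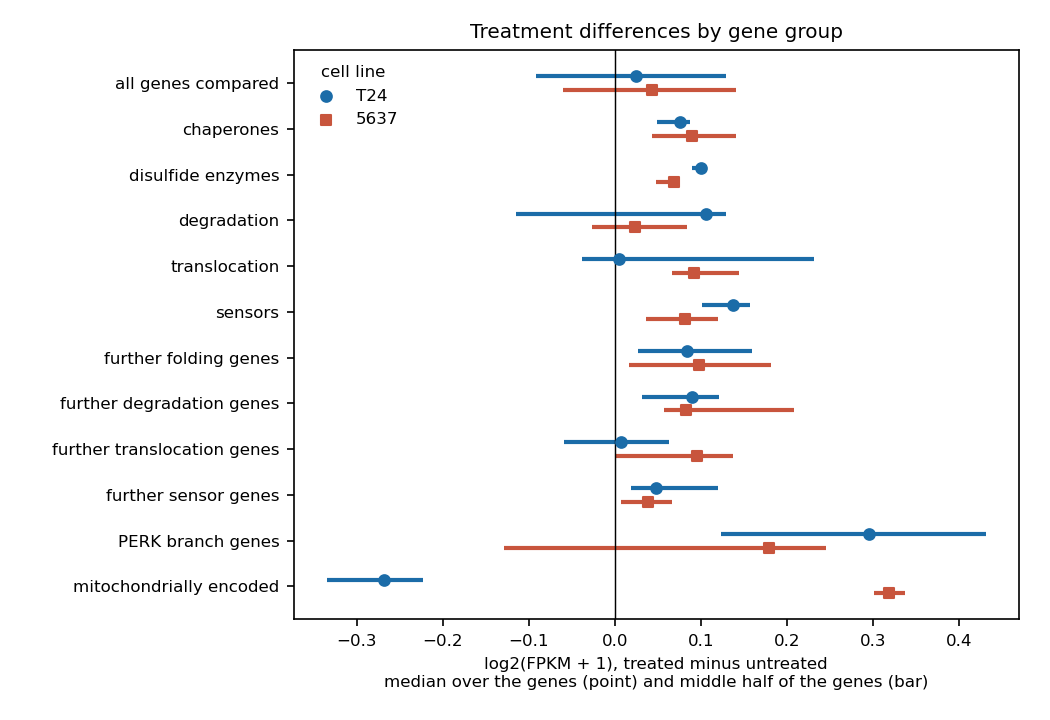
Treated minus untreated log2(FPKM + 1) by gene group in T24 (circles) and 5637 (squares); points are medians over genes and bars the range from the lower to the upper quartile, so bars show spread between genes and not error. The medians of the 5 groups of the 32 genes run from 0.00 to 0.14 in T24 and from 0.02 to 0.09 in 5637, those of all genes are 0.02 and 0.04, the PERK branch genes are at 0.30 and 0.18, and mitochondrially encoded genes are at -0.27 in T24 and 0.32 in 5637.

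The 2 lines differed in many of the ER genes. Each line has only its untreated and its treated library, so the p-values for the line do not measure spread between cultures of a line. In the same limma fit, 22 of 31 genes (71.0%) passed an adjusted p of 0.05 for 5637 against T24, and so did 68.9% of all 12893 genes, so the share was near the background. Of the 22, 9 were higher in 5637 (33.9% of all genes) and 13 higher in T24 (35.1%). The sizes were modest, with a median of 0.33 regardless of sign, beside 0.43 for all genes. SIL1 alone of the 31 reached a 2-fold difference, against 18.9% of all genes. With no filter on low values 15 of the 22 still passed and 7 did not.

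Higher in 5637 were HSPA5, HSP90B1, DNAJB9, CANX, PDIA4, PDIA6, ERO1A, SEC61B and ERN1. HSPA5 had the largest coefficient of these, 0.68 (95% interval 0.54 to 0.83, limma adjusted p = 0.000144). PDIA4 followed with 0.50 (0.36 to 0.65, limma adjusted p = 0.000487) and SEC61B with 0.42 (0.26 to 0.58, limma adjusted p = 0.00189). The 2 libraries of 5637 were above the 2 of T24 for each of these 3 genes.

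Higher in T24 were DNAJB11, CALR, HYOU1, SIL1, CRELD2, PDIA3, P4HB, TXNDC5, HERPUD1, DERL2, SEC61A1, SSR1 and XBP1. SIL1 had a coefficient of -1.01 (-1.21 to -0.80, limma adjusted p = 0.000131), and XBP1 had -0.97 (-1.13 to -0.80, limma adjusted p = 7.11e-05). SSR1 had -0.88 (-1.11 to -0.65, limma adjusted p = 0.000348) and HYOU1 -0.61 (-0.75 to -0.46, limma adjusted p = 0.000227). Both exchange factors and the J-domain protein DNAJB11 were thus higher in T24, while BiP itself was higher in 5637. DNAJB9 was higher in 5637 too, but it did not pass with no filter on low values, and it shares exons with THAP5 and PNPLA8. The sum of TXNDC5 and its read-through gene was larger in both T24 libraries. DERL2 shares 301 exon bases with MIS12 on the other strand, which was at 18.6 and 19.05 FPKM in T24 and 6.67 and 6.83 in 5637, and its part in the DERL2 difference was not tested.

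The other 9 genes did not pass under FPKM. MANF had a coefficient of -0.26 (-0.50 to -0.02, limma adjusted p = 0.0562), with its untreated 5637 library below the other 3. With TPM scaling MANF, SEL1L and SYVN1 did pass, with limma adjusted p = 0.0177, 0.0326 and 0.0207. DERL1 had -0.0033 (-0.17 to 0.16), EDEM1 -0.03 (-0.26 to 0.20) and ATF6 -0.03 (-0.24 to 0.17), and all 3 intervals include 0. Of the further ER genes, CLGN, a calnexin relative of the testis, was at 8.09 and 8.94 FPKM in T24 and 0.825 and 1.15 in 5637. SEC61G, the third subunit of the channel, was at 23.0 and 21.9 FPKM in T24 and 46.7 and 50.2 in 5637. The ATF6 relative CREB3L4 was at 3.11 and 3.40 and at 6.23 and 6.66 FPKM.

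**Figure D4:**
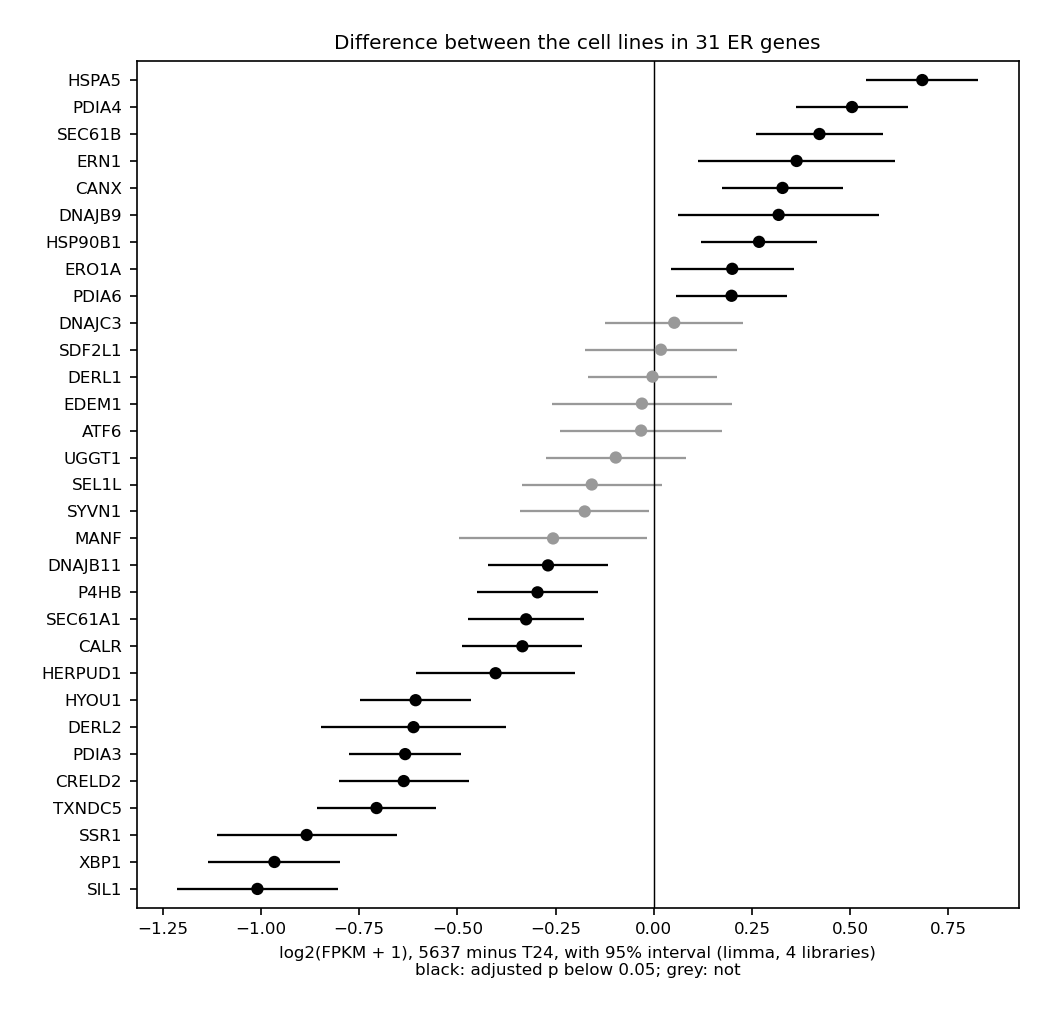
Difference between the cell lines (5637 minus T24, log2(FPKM + 1)) with its 95% interval from limma over the 4 libraries, for the 31 genes fitted; black points passed an adjusted p of 0.05 and grey points did not. The points run from SIL1 at -1.01 to HSPA5 at 0.68, with 9 genes passing on the side of 5637 and 13 on that of T24.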

How the data were processed

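Per the labels' protocols, RNA from each of the 4 cultures was extracted with a Qiagen kit, made into Illumina TruSeq RNA v2 libraries and sequenced with a HiSeq2500 as read pairs of 150 bases. The authors deposited FPKM by gene. Per the submitters' processing notes, the tools were Trimmomatic, HISAT2 and StringTie and the build was GRCh38. Versions and settings are not given in the sources used for this report. StringTie estimates how reads split between overlapping transcripts, so genes sharing exons affect each other.

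With pandas 2.3.3 in Python 3.11.15, the log2 of FPKM + 1 was taken. This scale understates changes of low genes. Within a line a gene was compared at 1 FPKM or more in at least 1 library. Effects over both lines were fitted with limma 3.58.1 in R 4.3.3 (trended prior, line and treatment as terms, genes reaching 1 FPKM in 2 or more libraries). The fit was also run on simulated data with noise drawn from the fitted prior. Those data meet the model's assumptions, so that run does not test the assumptions. Exon overlap came from GENCODE 29 (bedtools 2.31.1), and the 29 promoters from RefSeq. The 32 genes and the other lists were chosen with earlier results of these data known. Beyond the 32, named genes were, per list, the 2 with the largest shift shared by both lines in each direction, any at 0.5 or more, and the 2 largest line differences each way, of which 1 gene is not reported here. Alternatives covered the pseudocount, filter, scaling, prior and exon-sharing genes.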

Additional observations from a re-analysis of the deposited data

Results flagged for a closer look

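In the PERK branch list, 2 genes went in opposite directions in the lines, each past 0.25 on the log2(FPKM + 1) scale, and with 1 library a group the difference between the lines was not tested. DDIT4, an inhibitor of mTORC1 signalling, was at 16.9 FPKM untreated and 24.1 treated in T24 (0.49) and at 39.9 and 30.8 in 5637 (-0.36). For the transcription factor CEBPB the T24 values were 31.9 and 40.4 FPKM (0.33) and those of 5637 were 51.0 and 42.0 (-0.27). None of the 31 ER genes compared went past 0.25 in opposite directions.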

How the results depend on the processing

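The 31-gene median treatment difference in 5637, 0.08 as reported, was 0.014 after median-ratio scaling and 0.035 after TPM scaling, where the median of all genes was -0.013 and 0.0055. In both scalings 20 of 31 genes lay above that median, as under FPKM. Scaling moves all genes of a library together, median included, so this count could hardly change and is no check. The treatment effect over both lines had 0 calls among 12893 genes, 2 with a pseudocount of 0.1, and 2 when genes with same-strand exon sharing were left out. None of the 31 was called in any alternative that held it. Leaving out genes with same-strand exon sharing kept 26 of the 31. It removed HSP90B1, DNAJB11, TXNDC5, SYVN1 and SSR1. That setting thus says nothing of SSR1, SYVN1 and DNAJB11, which had an unadjusted limma p below 0.05. With median-ratio scaling the treatment coefficient turned to -0.0286 for HSP90B1, -0.0183 for CANX, -0.0299 for SDF2L1, -0.00759 for UGGT1, -0.0296 for PDIA6 and -0.0349 for EDEM1. With TPM it turned to -0.00195 for HSP90B1, -0.00481 for SDF2L1, -0.00303 for PDIA6 and -0.0113 for EDEM1. The difference between the lines turned, among genes that had not passed, to 0.0079 for EDEM1, 0.0372 for DERL1 and 0.0058 for ATF6 with median-ratio scaling, and to -0.0277 for DNAJC3 and -0.0627 for SDF2L1 with TPM. Without a filter on low values, where DERL3 entered and 16 of 32 genes passed, HSP90B1, DNAJB9, CALR, PDIA6, P4HB, ERO1A and ERN1 no longer passed for the line. MANF, SEL1L and SYVN1 passed for the line with TPM, and MANF also without exon-sharing genes. The cause was not tested. With pseudocount 0.1 or TPM, 2 of 31 genes in T24 reached 0.25 upward, and 0 did without genes sharing exons, which leaves out SSR1 and SYVN1. Depth limits DERL3 in 5637, at 4 and 1 reads per kilobase. The reported fit pairs the libraries by cell line, and without that term none of the 31 was called for treatment. The labels give no replicate numbers for a further block, and leaving out a library would leave a group empty.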

Other observations

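Stress elements also lie in promoters of genes outside the 32, named here after their values were seen. With the 19-base ERSE, 9 further genes could be compared in both lines, 6 above 0 in T24 (56% of all genes) and 5 in 5637 (61.5%), with medians of 0.05 and 0.01. Both strands were searched, so windows of neighbouring genes on opposite strands can hold the same copy of the element. ALG12, named below, shares 168 exon bases with CRELD2 on the other strand. Whether their windows hold the same copy was not tested. SERP1, which stabilises membrane proteins at the Sec61 channel, was at 23.0 and 24.04 FPKM untreated and treated in T24 and 26.8 and 27.0 in 5637. FICD, which modifies BiP with AMP, was at 2.65 and 2.81 FPKM in T24 and 1.215 and 1.20002 in 5637. The mannosyltransferase gene ALG12 was at 6.47 and 6.76 FPKM in T24 and 3.72 and 3.69 in 5637, and the oxidase gene ERO1B at 0.885 and 1.13 and at 0.717 and 1.04. EIF2A, which acts in translation initiation, was at 44.8 and 30.6 FPKM in T24 and 42.1 and 37.7 in 5637, differences of -0.53 and -0.16. With the ERSE-II, 11 further genes were compared, 7 above 0 in T24 (56% of all genes) and 8 in 5637 (61.5%), with medians of 0.05 and 0.04.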
